A study of Mus musculus with 2 samples.

Results

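This account follows 37 interferon-stimulated genes that encode sensors of nucleic acids and antiviral effectors. The members were taken by symbol from a list of names, with no threshold on measured values in the rule. The list was, however, chosen with earlier results of these data known. Every member is among the 55450 gene rows of the deposited matrices. They were read in cells of mouse brain on day 3 after microglia began to return, sorted by high CD11b and low CD45, with 1 single-cell library from Hk2 cKO mice and 1 from Hk2 fl/fl mice. Hk2 encodes hexokinase 2, which phosphorylates glucose at the entry of glycolysis. In the Hk2 cKO mice, floxed Hk2 is deleted by Cx3cr1-CreER, a tamoxifen-dependent Cre under the Cx3cr1 promoter, which is active in microglia and in other myeloid cells. The Hk2 fl/fl mice carry the floxed alleles, and the labels name no Cre driver for them. The labels give C57BL/6 as the strain of both and tamoxifen by injection in the first days after birth or as indicated. They do not state how microglia were depleted, the age at sorting, the animals behind each library, or whether Hk2 fl/fl mice received tamoxifen.

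Type I interferon binds its receptor on the cell surface, activates the kinases Jak1 and Tyk2, and sends a complex of transcription factors to the nucleus. That complex binds interferon-stimulated response elements in promoters and switches on a large set of genes, among them the RNA sensors, the ubiquitin-like modifier Isg15 and proteins that block viral entry, copying or release. Microglia respond to interferon readily, and some of these genes are also read at a basal level without added interferon.

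The response element core, a pair of GAAA repeats 2 bases apart (GAAANNGAAA, on either strand), was searched in RefSeq promoter windows of build GRCm38.p6, which run from 250 bases before a gene's start to 50 after it. A window was found by symbol for 28 of the 37 members, and 10 of the 28 (35.7%) held the core. Over all genes of the RefSeq table, 1079 of 27025 (3.99%) held it. No window was found for Dhx58, Zbp1, Usp18, Parp9, Parp14, Mx1, Mx2, Tor3a and Rtp4. For 27 of the 31 windows of members, the bases after the start were found in a transcript of the gene. The windows of Bst2 and Rnf213 were among those without such a match. The 60-base stretches below are shown because they lie upstream of the start and carry the core of members whose levels are given later. Capitals mark the core, overlapping copies run together, and each sequence is written 5′ to 3′ on the gene's own strand, which is the minus strand for all 7. They are Isg15 at chr4:156200850-156200909, Bst2 at chr8:71537562-71537621, Rsad2 at chr12:26456538-26456597, Phf11a at chr14:59297523-59297582, Phf11b at chr14:59341346-59341405, Trim30a at chr7:104465195-104465254 and Lgals9 at chr11:78984945-78985004.
Isg15: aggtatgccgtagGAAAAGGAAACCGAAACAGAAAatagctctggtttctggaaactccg
Bst2: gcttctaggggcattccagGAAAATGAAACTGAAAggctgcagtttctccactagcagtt
Rsad2: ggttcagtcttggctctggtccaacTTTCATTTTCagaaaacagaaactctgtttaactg
Phf11a: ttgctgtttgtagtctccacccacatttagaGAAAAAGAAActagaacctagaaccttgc
Phf11b: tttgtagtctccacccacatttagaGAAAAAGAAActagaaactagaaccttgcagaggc
Trim30a: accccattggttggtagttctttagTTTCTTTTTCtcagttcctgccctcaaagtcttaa
Lgals9: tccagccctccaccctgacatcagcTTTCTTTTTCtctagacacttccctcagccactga
Isg15 has 3 overlapping copies and Bst2 has 2, while the others have a single copy in the printed stretch. Phf11a and Phf11b share most of the letters around it. Ddx58, Ifih1 and Eif2ak2 also held a copy, just past the annotated start. A match is a description of the letters, and its absence from this window says nothing of the factors that bind elsewhere.

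The libraries held 2607 Hk2 cKO barcodes with 32896996 UMIs and 3089 Hk2 fl/fl barcodes with 37476201 UMIs, and 2 barcodes occurred in both. After cell filters, 2012 of 2300 Hk2 cKO cells (87.5%) and 2474 of 2824 Hk2 fl/fl cells (87.6%) were microglia-like, with a median depth of 12009.5 UMIs in Hk2 cKO and 10192.5 in Hk2 fl/fl. The 16 microglial markers were detected in 91.9% of Hk2 cKO and 91.8% of Hk2 fl/fl microglia-like cells on average. Hk2 measured 43.6 CPM (UMIs per 1000000) in Hk2 cKO and 166 CPM in Hk2 fl/fl cells, a log2 ratio of -1.91. Cx3cr1 measured 676 CPM in Hk2 cKO and 1301 CPM in Hk2 fl/fl cells, and since the Cre driver sits at that locus, a lower Cx3cr1 level cannot be told apart from the driver's own effect. The labels give the driver for Hk2 cKO alone and leave tamoxifen in Hk2 fl/fl mice unstated. For the members too, loss of Hk2 therefore cannot be told apart from the driver, the lower Cx3cr1 level or tamoxifen. S100a8, a neutrophil gene, had a UMI in 13.9% of Hk2 cKO and 15.3% of Hk2 fl/fl microglia-like cells at full depth, and in 6.11% of Hk2 cKO and 6.57% of Hk2 fl/fl cells thinned to 5000 UMIs, as free RNA or remaining doublets could give. The 10 neutrophil markers summed to 65.3 CPM in Hk2 cKO and 44.9 CPM in Hk2 fl/fl microglia-like cells, and the 10 monocyte markers to 136 CPM in Hk2 cKO and 80.3 CPM in Hk2 fl/fl cells, with none at 0, and their part in the results was not tested. With 1 library per genotype there was no test, so no p-value is given and all intervals (95%) cover counting error only. A higher level below therefore describes these 2 libraries.

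In microglia-like cells all 37 members were higher in Hk2 cKO. Their UMIs summed to 90387 in Hk2 cKO and 53105 in Hk2 fl/fl cells, or 3177 CPM in Hk2 cKO and 1622 CPM in Hk2 fl/fl, a 1.96-fold ratio with a log2 ratio of 0.97 (0.95 to 0.99). A mean of at least 10 CPM over the libraries was reached by 34 members, called measured here. All 34 measured members were higher in Hk2 cKO, against 38.6% of all 7814 genes under the same filter. By the fixed rule of size, 32 of 34 were higher by at least 25%, against 3.31% of all genes, and 13 by at least 2-fold, against 0.448%. Of the 35 genes among the 7814 that were higher by at least 2-fold, 13 were members. Because earlier results of these data were known when the list was chosen, these shares describe it and are no independent check. The Poisson intervals of the libraries did not overlap for any of the 34, against 10.7% of all genes higher in this way. The median log2 ratio of the members, with 1 CPM added to each level, was 0.83 (1.77-fold), while the median of all genes was -0.04.

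**Figure D1:**
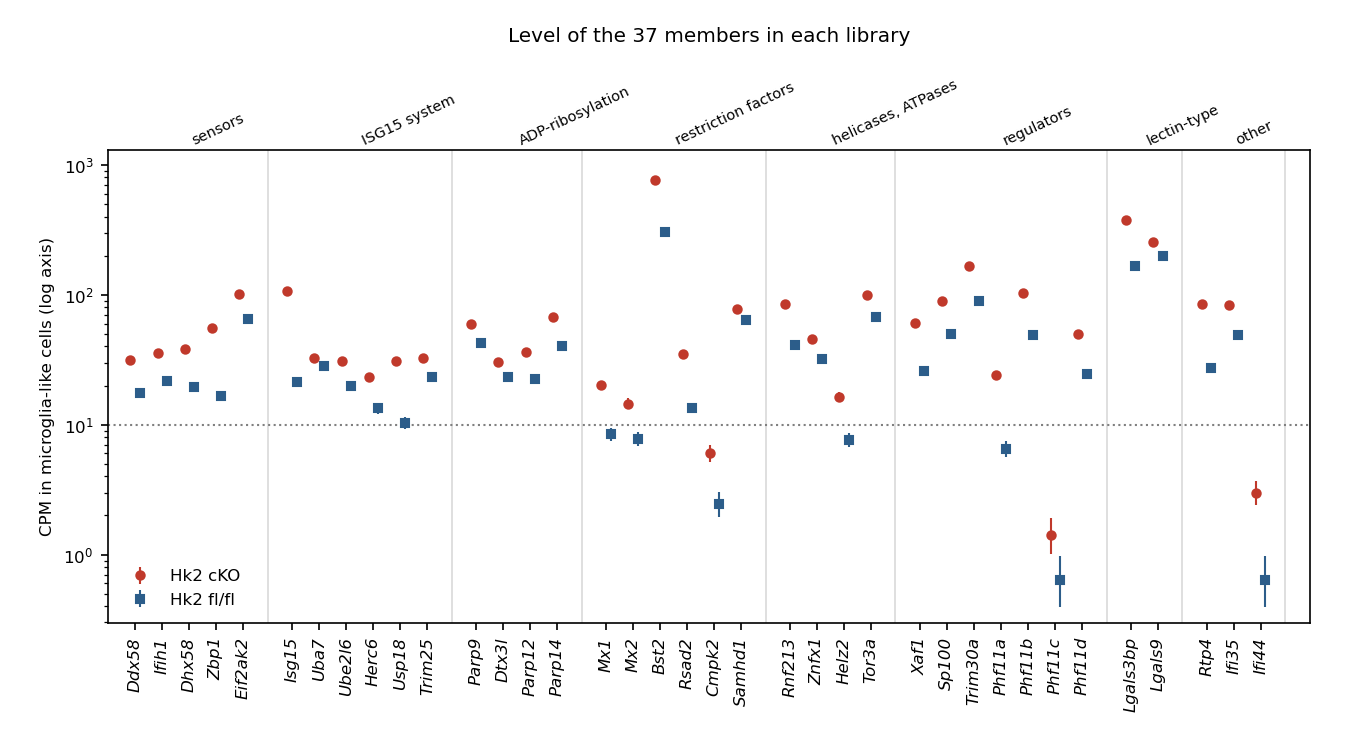
CPM of each member in microglia-like cells on a log axis, grouped by role, with Hk2 cKO as circles and Hk2 fl/fl as squares (bars: 95% Poisson interval; dotted line: 10 CPM). The Hk2 cKO point lies above the Hk2 fl/fl point for all 37 members, from Phf11c at 1.41 and 0.642 CPM to Bst2 at 764 and 305 CPM.

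Among the sensors, Zbp1 differed most. This sensor of left-handed nucleic acids, which can start inflammatory cell death, measured 55.9 CPM (53.2 to 58.7) in Hk2 cKO and 16.7 CPM (15.3 to 18.2) in Hk2 fl/fl cells, a log2 ratio of 1.68. The RIG-I-like receptors lay close to each other. Ddx58, which encodes RIG-I, the receptor for short RNA with a 5′ triphosphate, measured 31.7 CPM in Hk2 cKO and 17.4 CPM in Hk2 fl/fl cells, a log2 ratio of 0.83. Ifih1, which encodes MDA5, the receptor for long double-stranded RNA, measured 35.3 CPM in Hk2 cKO and 21.6 CPM in Hk2 fl/fl cells (log2 ratio 0.69). Dhx58, whose product LGP2 tunes both receptors, measured 37.9 CPM in Hk2 cKO and 19.5 CPM in Hk2 fl/fl cells (log2 ratio 0.93). Eif2ak2, the kinase PKR that halts translation on binding double-stranded RNA, was at a higher level in both libraries, with 101 CPM in Hk2 cKO and 64.9 CPM in Hk2 fl/fl cells, and had the smallest ratio of the 5 sensors (0.63).

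The Isg15 conjugation system showed the widest spread of any group. Isg15, the ubiquitin-like modifier itself, measured 105.9 CPM (102.2 to 109.8) in Hk2 cKO and 21.1 CPM (19.6 to 22.8) in Hk2 fl/fl cells, a log2 ratio of 2.27, the highest of the 34 measured members. Usp18, the protease that removes Isg15 and also restrains the interferon receptor, measured 31.1 CPM in Hk2 cKO and 10.4 CPM in Hk2 fl/fl cells (log2 ratio 1.49). The enzymes that attach Isg15 differed far less. Herc6, the ligase of this system in mice, measured 23.2 CPM in Hk2 cKO and 13.3 CPM in Hk2 fl/fl cells (0.75). Ube2l6, the conjugating enzyme, measured 30.7 CPM in Hk2 cKO and 19.9 CPM in Hk2 fl/fl cells (0.60). Uba7, the activating enzyme at the head of the cascade, measured 32.4 CPM (30.4 to 34.6) in Hk2 cKO and 28.4 CPM (26.6 to 30.3) in Hk2 fl/fl cells, a log2 ratio of 0.19 and the lowest of all measured members. Trim25, a ubiquitin ligase that activates RIG-I, measured 32.4 CPM in Hk2 cKO and 23.4 CPM in Hk2 fl/fl cells (0.46). The modifier and its protease thus stood well above the 3 conjugating enzymes in their ratios, and Uba7 did not reach the 25% rule. Uba7 and Herc6 share transcript sequence near their 3′ ends with the overlapping annotated genes Gm20661 and Gm45193, for 5.85% and 24.5% of 50-base words, so the split of those reads is uncertain.

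The ADP-ribosylation genes formed an even, moderate group, with ratios between 0.38 and 0.72. Parp14, a large ADP-ribosyltransferase with macrodomains, measured 67.4 CPM in Hk2 cKO and 40.4 CPM in Hk2 fl/fl cells (log2 ratio 0.72). Parp12, a zinc-finger relative with antiviral activity, measured 36.2 CPM in Hk2 cKO and 22.5 CPM in Hk2 fl/fl cells (0.66). Parp9 and Dtx3l, whose proteins form a complex of ADP-ribosyltransferase and ubiquitin ligase, were lowest. Parp9 measured 59.8 CPM in Hk2 cKO and 42.2 CPM in Hk2 fl/fl cells (0.49), and Dtx3l measured 30.5 CPM in Hk2 cKO and 23.3 CPM in Hk2 fl/fl cells (0.38). The loci of this pair overlap on opposite strands of chromosome 16, and whether counting used strand is not stated in the sources used here. Parp14 shares 4.58% of 50-base words near its 3′ end with the overlapping annotated gene Gm49730, so the split of those reads is uncertain.

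Among the proteins that restrict viruses directly, Bst2 carried the largest difference in CPM of all members. Bst2, or tetherin, holds budding virions at the membrane, and measured 764 CPM (754 to 775) in Hk2 cKO and 305 CPM (299 to 311) in Hk2 fl/fl cells, a log2 ratio of 1.32. Rsad2, or viperin, makes a chain-terminating nucleotide, and measured 34.7 CPM (32.6 to 36.9) in Hk2 cKO and 13.4 CPM (12.2 to 14.8) in Hk2 fl/fl cells, a ratio of 1.31. Its promoter is among those printed above, with a single copy of the core 110 bases upstream. Cmpk2, a mitochondrial nucleotide kinase next to Rsad2 on chromosome 12, was too low to count as measured, with 172 UMIs in Hk2 cKO and 80 in Hk2 fl/fl cells. The dynamin-like GTPases Mx1 and Mx2, which trap incoming viral nucleoproteins, were both low. Mx1 measured 20.1 CPM in Hk2 cKO and 8.40 CPM in Hk2 fl/fl cells (1.17), and Mx2 measured 14.4 CPM in Hk2 cKO and 7.82 CPM in Hk2 fl/fl cells (0.81). Most laboratory strains, C57BL/6 included, carry a defective Mx1 allele. Samhd1, which removes deoxynucleotides and is abundant in resting myeloid cells, measured 78.2 CPM in Hk2 cKO and 64.3 CPM in Hk2 fl/fl cells, a ratio of 0.28 (1.21-fold), and with Uba7 made the pair of measured members under the 25% rule.

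The large helicases and ATPases were all higher by more than 25%. Rnf213, a giant ubiquitin ligase with ATPase modules that coats intracellular microbes, measured 84.3 CPM in Hk2 cKO and 41.1 CPM in Hk2 fl/fl cells (log2 ratio 1.02). Helz2, a helicase and nuclear coactivator, measured 16.4 CPM in Hk2 cKO and 7.64 CPM in Hk2 fl/fl cells (1.01). Tor3a, an ATPase of the endoplasmic reticulum, measured 99.7 CPM in Hk2 cKO and 67.1 CPM in Hk2 fl/fl cells (0.56). Znfx1, a helicase that binds viral RNA at mitochondria, measured 45.6 CPM in Hk2 cKO and 31.8 CPM in Hk2 fl/fl cells (0.51).

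Among the nuclear and signalling regulators, Phf11a ranked 2 and Xaf1 ranked 8 of the 34 measured members by ratio, and the others ranked 11 or lower. Xaf1, a partner of the apoptosis inhibitor XIAP, measured 60.2 CPM in Hk2 cKO and 25.7 CPM in Hk2 fl/fl cells (log2 ratio 1.20). Sp100, a component of nuclear bodies, measured 89.3 CPM in Hk2 cKO and 50.1 CPM in Hk2 fl/fl cells (0.82). Trim30a, which dampens Toll-like receptor signalling in mice, measured 167.6 CPM in Hk2 cKO and 89.6 CPM in Hk2 fl/fl cells (0.90). The Phf11 genes lie side by side on chromosome 14 and encode PHD-finger proteins. Phf11b was the most abundant, with 103.5 CPM in Hk2 cKO and 48.8 CPM in Hk2 fl/fl cells (1.07). Phf11d measured 49.8 CPM in Hk2 cKO and 24.7 CPM in Hk2 fl/fl cells (0.98), and Phf11a measured 23.9 CPM in Hk2 cKO and 6.51 CPM in Hk2 fl/fl cells (1.73). Phf11c had 40 UMIs in Hk2 cKO and 21 in Hk2 fl/fl cells. Within the last 500 bases of their transcripts, 25.3% (Phf11d) to 66.3% (Phf11c) of all 50-base words also occur in another gene, mostly another Phf11 gene, so the split of reads among the 4 is uncertain. For Trim30a, 19.9% of these words also occur in Trim30d, and for Sp100, 7.03% occur in other genes.

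Of the secreted lectin-type proteins, Lgals3bp, a glycoprotein that binds galectins, measured 379 CPM (372 to 386) in Hk2 cKO and 166 CPM (162 to 171) in Hk2 fl/fl cells, a log2 ratio of 1.18. Lgals9, a galectin that binds Tim-3, measured 256 CPM (250 to 262) in Hk2 cKO and 199 CPM (195 to 204) in Hk2 fl/fl cells, a ratio of 0.36 and just past the 25% rule. Rtp4, a chaperone of membrane receptors that also counters viruses, measured 84.7 CPM (81.4 to 88.2) in Hk2 cKO and 27.2 CPM (25.4 to 29.0) in Hk2 fl/fl cells, a ratio of 1.61. Rtp4 overlaps the annotated genes Gm45338 and, on the other strand, Masp1. Ifi35, which forms cytoplasmic complexes with the adaptor Nmi, measured 83.5 CPM in Hk2 cKO and 48.7 CPM in Hk2 fl/fl cells (0.77). Ifi44 was too low to count as measured, with 85 UMIs in Hk2 cKO and 21 in Hk2 fl/fl cells. Over the members with a promoter window, the 10 measured ones with the core had a median ratio of 0.98 (0.36 for Lgals9 to 2.27 for Isg15), and the 15 measured ones without it a median of 0.75 (0.19 for Uba7 to 1.20 for Xaf1), so the ranges overlap. Zbp1, Rtp4 and Usp18, which ranked 3, 4 and 5 by ratio, had no window and are in neither median.

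How evenly the shift spread over genes depended on whether UMIs or genes were weighted. By gene, the middle 50% of the measured members had log2 ratios between 0.61 and 1.18, and none was lower in Hk2 cKO. By UMI, a few abundant members took most of the 1555 CPM by which the summed levels differed. Bst2 alone took 29.6% of the difference and Lgals3bp 13.7%, and with Isg15, Trim30a and Rtp4 the share came to 57.4%. Those 5 genes held 47.3% of member CPM in Hk2 cKO and 37.5% in Hk2 fl/fl cells. Without Bst2 the summed log2 ratio was 0.87, and without all 5 it was 0.73. Lgals9 was behind only Bst2 and Lgals3bp in mean level, yet ranked 32 of 34 by ratio.

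**Figure D2:**
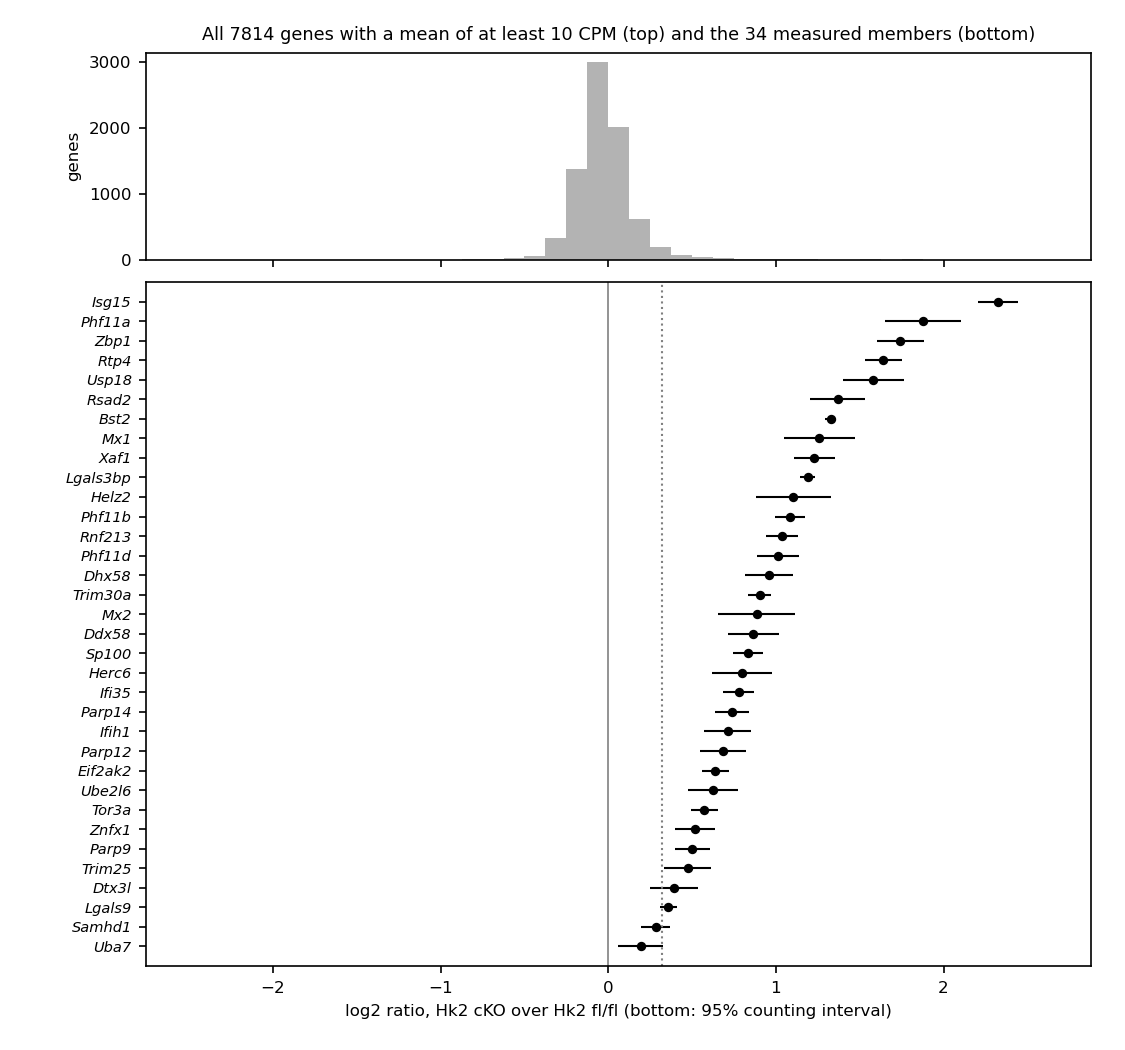
Top, log2 ratio of CPM + 1 (Hk2 cKO over Hk2 fl/fl) of all 7814 measured genes, as a histogram with the number of genes on the vertical axis; bottom, log2 count ratio of the 34 measured members on the same horizontal axis, with 95% counting intervals. The dotted line marks 25% higher, which all but Samhd1 and Uba7 passed in CPM + 1, while the histogram centres near 0 (median -0.04).

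To see how the shift spread over cells, each microglia-like cell was thinned to 5000 UMIs, which left out 180 Hk2 cKO and 220 Hk2 fl/fl cells of lower depth. The thinned Hk2 cKO cells (1832) held a mean of 15.8 member UMIs and the thinned Hk2 fl/fl cells (2254) a mean of 8.23. The whole distribution lay higher. At the 10th percentile Hk2 cKO cells had 6 member UMIs and Hk2 fl/fl cells 3, at the median Hk2 cKO cells had 14 and Hk2 fl/fl cells 7, and at the 90th percentile Hk2 cKO cells had 27 and Hk2 fl/fl cells 14. The ratio of the percentiles thus lay between 1.80 and 2.00 from the 10th to the 90th, and was 1.64 at the 99th. At least 10 member UMIs were found in 72.2% (70.1 to 74.3) of Hk2 cKO and 26.9% (25.1 to 28.8) of Hk2 fl/fl cells. Cells with at least 20 made up 26.9% (24.9 to 29.0) of Hk2 cKO and 4.53% (3.70 to 5.47) of Hk2 fl/fl cells, so cells with many member UMIs were also more frequent in Hk2 cKO. The lower limit of 3 UMIs, fixed as the main one, was nearly saturated, with 98.8% (98.2 to 99.2) of Hk2 cKO and 93.3% (92.1 to 94.3) of Hk2 fl/fl cells past it; without thinning the shares were 98.8% in Hk2 cKO and 96.3% in Hk2 fl/fl. No member UMI was seen in 3 Hk2 cKO and 12 Hk2 fl/fl thinned cells.

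**Figure D3:**
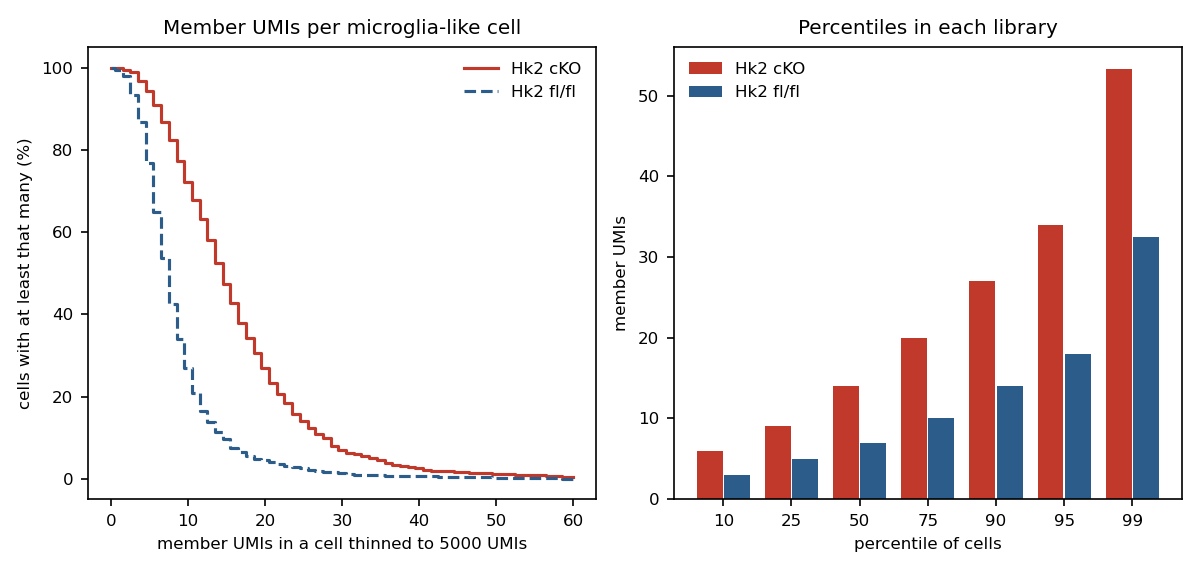
Left, share of thinned microglia-like cells (vertical axis, %) with at least the number of member UMIs on the horizontal axis, Hk2 cKO as a solid and Hk2 fl/fl as a dashed line; right, member UMIs at percentiles of cells in each library. The Hk2 cKO curve lies to the right over its whole length, and at the median the bars stand at 14 and 7 UMIs.

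The difference was not confined to the cells with most member UMIs. The 10% of cells with most member UMIs held 23.7% of them in Hk2 cKO and 27.1% in Hk2 fl/fl cells. Leaving those cells out of each library gave means of 13.4 UMIs in Hk2 cKO and 6.66 in Hk2 fl/fl cells, a 2.01-fold ratio against 1.92-fold in all thinned cells. With the top 50% left out the means were 8.80 UMIs in Hk2 cKO and 4.46 in Hk2 fl/fl cells (1.98-fold). These cells were ranked by the members themselves, so the values describe the distribution and are no independent check. When clusters were made with interferon genes included, a single microglia-like cluster was led by them. In it the members summed to 4938 CPM in Hk2 cKO and 4572 CPM in Hk2 fl/fl cells (log2 ratio 0.11, 0.06 to 0.16), and in all other microglia-like clusters to 2776 CPM in Hk2 cKO and 1544 CPM in Hk2 fl/fl cells (0.85, 0.83 to 0.86). That cluster is defined by such genes, so a similar level within it follows from how it was chosen. The median number of different members seen per thinned cell was 8 in Hk2 cKO and 5 in Hk2 fl/fl cells.

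Members differed in how widely their UMIs were spread. For each member, cells were ranked by the UMIs of all other members, and the share of its own UMIs that fell in the top 10% of cells was taken. Rsad2 was the most concentrated measured member, with 55.7% of its UMIs there in Hk2 cKO and 72.9% in Hk2 fl/fl cells. Mx1 had 47.8% in Hk2 cKO and 47.3% in Hk2 fl/fl cells, and Usp18 had 41.3% in Hk2 cKO and 50.4% in Hk2 fl/fl cells. Isg15 had 34.7% in Hk2 cKO and 47.4% in Hk2 fl/fl cells. Lgals9 was near the 10% that an even spread gives, with 14.1% in Hk2 cKO and 14.4% in Hk2 fl/fl cells, and Bst2 had 17.4% in Hk2 cKO and 19.6% in Hk2 fl/fl cells. Lgals3bp had 15.2% in Hk2 cKO and 20.1% in Hk2 fl/fl cells. Rsad2, Mx1, Usp18 and Isg15 were thus more concentrated in cells rich in other members than Bst2, Lgals3bp and Lgals9 were.

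The share of thinned cells with a UMI was higher in Hk2 cKO for all 34 measured members, against 37.9% of all genes, and for the 3 others. Bst2 had a UMI in 89.8% of Hk2 cKO and 72.2% of Hk2 fl/fl cells, with 4.14 UMIs per positive cell in Hk2 cKO and 2.13 in Hk2 fl/fl. Isg15 had a UMI in 30.1% (28.0 to 32.3) of Hk2 cKO and 8.07% (6.98 to 9.28) of Hk2 fl/fl cells, with 1.69 UMIs per positive cell in Hk2 cKO and 1.37 in Hk2 fl/fl. Rsad2 had a UMI in 10.6% of Hk2 cKO and 3.68% of Hk2 fl/fl cells, and its UMIs per positive cell were 1.73 in Hk2 cKO and 1.87 in Hk2 fl/fl. Its higher level in Hk2 cKO therefore came with more positive cells and not with more UMIs in each. No cell class in these libraries is known to lack the members, and the S100a8 shares at the same thinned depth, 6.11% in Hk2 cKO and 6.57% in Hk2 fl/fl cells, are given as a guide to how often a gene of another cell type was seen. The Hk2 fl/fl share of Rsad2 was below both. So were the Hk2 fl/fl shares of Usp18 (4.70%), Mx1 (3.90%), Mx2 (3.86%), Helz2 (3.59%) and Phf11a (2.80%), and those of Cmpk2, Phf11c and Ifi44.

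In cells without a UMI of Isg15, 69.9% of Hk2 cKO and 91.9% of Hk2 fl/fl thinned cells, the remaining members still averaged 12.9 UMIs in Hk2 cKO and 7.51 UMIs in Hk2 fl/fl cells (1.72-fold). In cells with no UMI of Isg15, Rsad2, Usp18, Mx1 and Cmpk2, genes chosen after their concentration was seen, the rest averaged 11.7 UMIs in Hk2 cKO and 7.03 UMIs in Hk2 fl/fl cells (1.66-fold). In sum, the remaining members were thus also higher in Hk2 cKO among cells in which those genes were not detected. The remaining members were not all broad. Herc6, for instance, had 30.7% of its UMIs in the top 10% of Hk2 cKO cells and 31.9% in those of Hk2 fl/fl. A gene not detected at this depth can still be expressed.

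Microglial states were compared in clusters made without the members and without other interferon genes. In the 9 microglia-like clusters the summed member level was 2872 to 3600.4 CPM in Hk2 cKO and 1167 to 1861 CPM in Hk2 fl/fl cells, so the ranges did not overlap. Summed log2 ratios ran from 0.75 to 1.34. The lowest was in the cluster led by Adamts1 and Otud1, with 2962 CPM in Hk2 cKO and 1762 CPM in Hk2 fl/fl cells. The highest were in the cluster led by Fam213b and Mif, with 2993 CPM in Hk2 cKO and 1182 CPM in Hk2 fl/fl cells, and in a cluster led by the cell cycle genes Cdk1 and Pbk, with 2872 CPM in Hk2 cKO and 1167 CPM in Hk2 fl/fl cells (ratio 1.30). The member Bst2 was itself among the 10 leading genes of the Fam213b and Mif cluster. These clusters stood out by low Hk2 fl/fl levels, while their Hk2 cKO levels were near those of the other clusters. Of the 34 measured members, 29 were higher in all 9 clusters, against 3.3% of all genes, and 24 by at least 25% in all 9, against 0.857%. Uba7, Trim25, Dtx3l, Mx2 and Samhd1 were the members with a ratio below 0 in at least 1 cluster, the lowest being -0.27 for Mx2 in the cluster led by Rcan1 and Ccl7. Rsad2 varied most between clusters, from 0.38 to 3.85, while Bst2 stayed between 1.09 and 1.69.

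**Figure D4:**
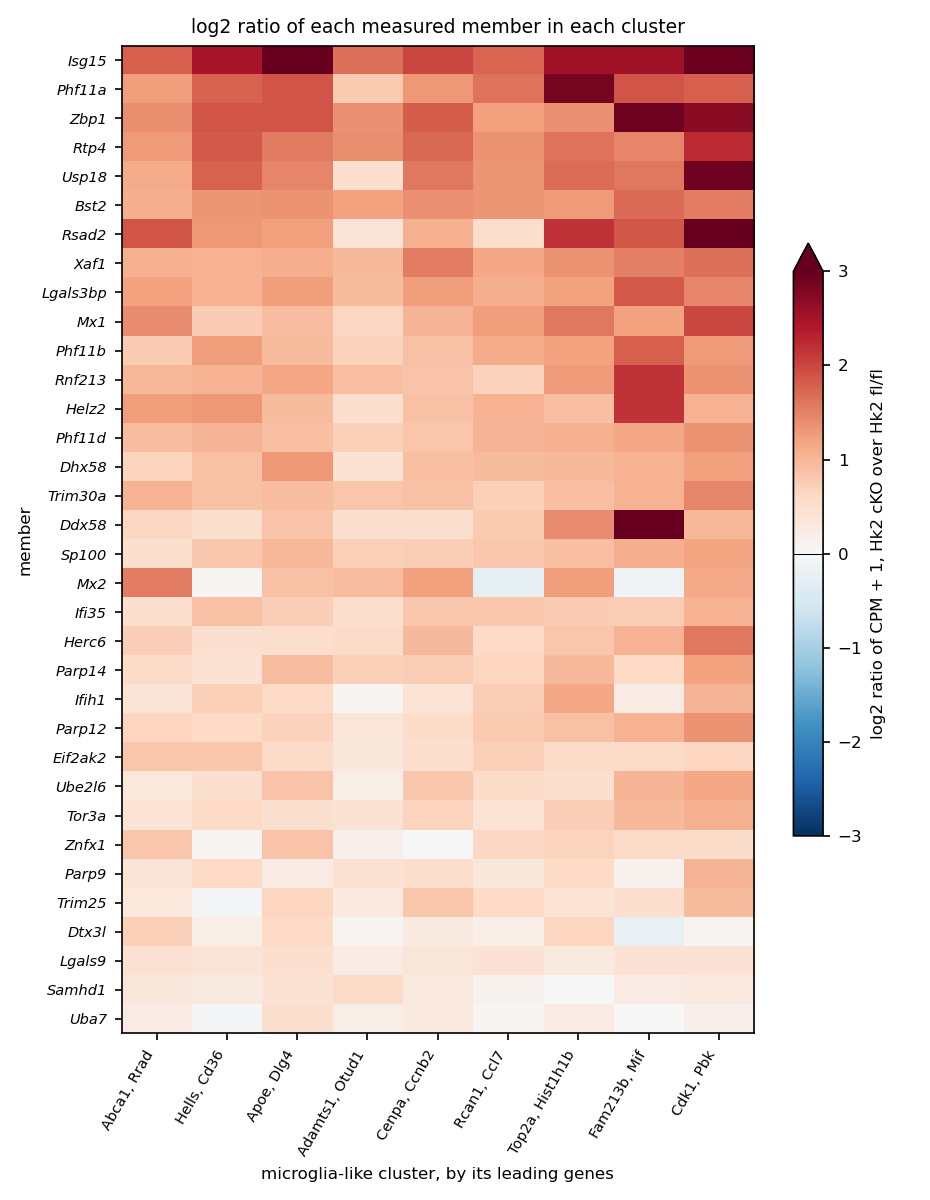
Log2 ratio of CPM + 1 (Hk2 cKO over Hk2 fl/fl) of each measured member (vertical axis, ordered by its ratio in all microglia-like cells) in each of the 9 microglia-like clusters (horizontal axis, named by leading genes). Red means higher in Hk2 cKO, and nearly all fields are red; values past 3, such as 3.85 for Rsad2, have the end colour.

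The members were higher in Hk2 cKO in cells with and without cell cycle genes. The cells were called after thinning to 5000 UMIs, while the levels given here use all UMIs of the called cells. Cells with at least 3 of 12 G2/M genes and no such set of S genes had summed member levels of 3130 CPM in Hk2 cKO and 1555 CPM in Hk2 fl/fl cells (log2 ratio 1.01, 0.97 to 1.05). Cells with S genes alone had the lowest ratio, with 2773 CPM in Hk2 cKO and 1595 CPM in Hk2 fl/fl cells (0.80, 0.76 to 0.84). Cells with both had 3029 CPM in Hk2 cKO and 1521 CPM in Hk2 fl/fl (0.99), and cells with neither had 3350.2 CPM in Hk2 cKO and 1708 CPM in Hk2 fl/fl cells (0.97).

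Cells of other classes were few, and many of them held UMIs of microglial markers. Summed member levels were 1839 CPM in 89 Hk2 cKO and 1113 CPM in 82 Hk2 fl/fl neutrophil-like cells (log2 ratio 0.72, 0.62 to 0.83), with 23 of 34 members higher by at least 25% against 13.3% of genes. In monocyte-like cells they were 2901 CPM (21 Hk2 cKO cells) and 2084 CPM (63 Hk2 fl/fl cells), a ratio of 0.48 (0.33 to 0.62), with 18 of 34 higher by 25% against 22.9%. Dendritic-like cells had 3606 CPM in Hk2 cKO and 2366 CPM in Hk2 fl/fl cells (0.61, 23 of 34 against 18.9%), and endothelial-like cells 3165 CPM in Hk2 cKO and 1975 CPM in Hk2 fl/fl (0.68, 27 of 34 against 20.7%). Siglech, Fcrls, Tmem119 and P2ry12, all microglial markers, together measured 1201 CPM in Hk2 cKO and 1242 CPM in Hk2 fl/fl neutrophil-like cells, against 2752 CPM in Hk2 cKO and 2698 CPM in Hk2 fl/fl microglia-like cells, and 22.2 CPM in Hk2 cKO and 950.4 CPM in Hk2 fl/fl monocyte-like cells. In endothelial-like cells they measured 1810.1 CPM in Hk2 cKO and 1845 CPM in Hk2 fl/fl, and in dendritic-like cells 1020 CPM in Hk2 cKO and 1404 CPM in Hk2 fl/fl. In neutrophil- and endothelial-like cells the marker level was thus close between the libraries, and in monocyte- and dendritic-like cells it was lower in Hk2 cKO. Neutrophil-like cells with no UMI of these 4 markers, 57 Hk2 cKO and 34 Hk2 fl/fl cells, had member levels of 836 CPM in Hk2 cKO (403 UMIs) and 768 CPM in Hk2 fl/fl (148 UMIs), a ratio of 0.12 whose interval (-0.15 to 0.40) spans 0. In them 21 of 34 members were higher by at least 25%, where 33.1% of all genes were at this low depth, and the median member log2 ratio was 0.67. Monocyte-, dendritic- and endothelial-like cells without the markers numbered under 20 in at least 1 library and were not compared. Pooled over neutrophil-, monocyte- and endothelial-like cells without the markers, the members were lower in Hk2 cKO, at 1462 CPM in Hk2 cKO (93 cells) and 1928 CPM in Hk2 fl/fl (75 cells) (log2 ratio -0.40, -0.53 to -0.27). The pools differ in makeup, with 57 neutrophil-like and 17 monocyte-like cells in Hk2 cKO and 34 of each in Hk2 fl/fl. The summed and median values of the marker-free neutrophil-like cells thus differ, the pool compares unlike mixtures, and the part of microglial RNA in the class values was not tested beyond this.

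**Figure D5:**
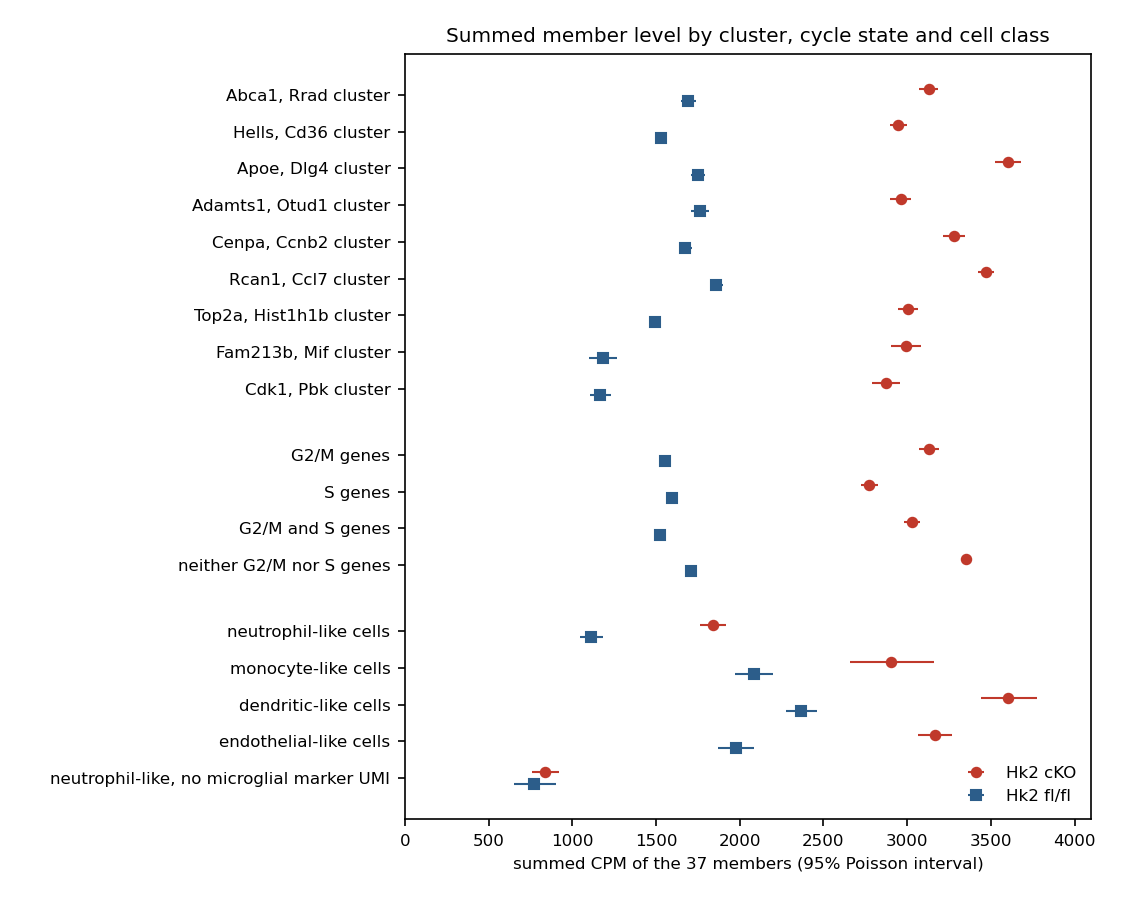
Summed CPM of the 37 members (horizontal axis) in Hk2 cKO (circles) and Hk2 fl/fl (squares) by microglia-like cluster, by cell cycle genes and by other cell class (vertical axis), with 95% Poisson intervals. In every microglia-like cluster and state the Hk2 cKO level is at least 2773 CPM and the Hk2 fl/fl level at most 1861 CPM, and in neutrophil-like cells without microglial markers the intervals overlap.

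The libraries also differed in mitochondrial reads. Gm28438, an annotated nuclear copy of mt-Nd3, had 7863 UMIs in Hk2 cKO and 1942 in Hk2 fl/fl microglia-like cells, whereas mt-Nd3 had 54 in Hk2 cKO and 4733 in Hk2 fl/fl cells. Among Hk2 fl/fl cells, those with Gm28438 alone (493) had 1552 CPM of the members and those with mt-Nd3 alone (1206) had 1625 CPM, a log2 ratio of -0.07 (-0.10 to -0.03). Hk2 cKO cells with Gm28438 alone (1710) had 3172 CPM, a ratio of 1.03 (1.00 to 1.06) to the Hk2 fl/fl cells of the same kind, with 34 of 34 members higher by at least 25% against 6.57% of genes. The Hk2 cKO level was above that of both Hk2 fl/fl kinds for all 34 measured members, against 23.4% of genes. Y-linked UMIs without Xist were found in 1559 Hk2 cKO and 2017 Hk2 fl/fl microglia-like cells and Xist without Y-linked UMIs in 0 Hk2 cKO and 1 Hk2 fl/fl cells.

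The pathway around the members was read from lists of other interferon genes. Ifnb1, the type I interferon that microglia can make, had 116 UMIs in Hk2 cKO and 129 in Hk2 fl/fl cells. That is 4.08 CPM (3.37 to 4.89) in Hk2 cKO and 3.94 CPM (3.29 to 4.68) in Hk2 fl/fl. The ligands of types I and III together had 127 UMIs in Hk2 cKO and 138 in Hk2 fl/fl cells, and Ifng had none, for which 3 UMIs allow up to 0.105 CPM in Hk2 cKO and 0.0916 CPM in Hk2 fl/fl cells. None of 8 measured receptors and kinases was higher or lower by at least 25%. Of all genes, 3.31% were higher and 2.48% lower by that much, so the count says little. Ifnar1, a chain of the type I receptor, measured 35.3 CPM in Hk2 cKO and 41.2 CPM in Hk2 fl/fl cells, and Tyk2, a kinase bound to it, measured 24.5 CPM in Hk2 cKO and 22.8 CPM in Hk2 fl/fl cells. Of 9 transcription factors, 4 were higher by at least 25%, against 3.31% of all genes. Irf7, the amplifier of interferon production, measured 81.2 CPM in Hk2 cKO and 22.1 CPM in Hk2 fl/fl cells (log2 ratio 1.83). Irf8, a lineage factor of microglia, measured 419 CPM in Hk2 cKO and 407 CPM in Hk2 fl/fl cells (0.04).

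Of 11 genes listed as upstream adaptors, 10 were found by symbol and 8 were measured. Of the 8, 1 was higher by at least 25%, against 3.31% of all genes, so the count says little. The higher gene was Tlr3, an endosomal receptor for double-stranded RNA, with 42.7 CPM in Hk2 cKO and 30.2 CPM in Hk2 fl/fl cells. Tmem173, which encodes STING, measured 151 CPM in Hk2 cKO and 161 CPM in Hk2 fl/fl cells. Other families of induced genes were mostly higher too. Of 7 measured IFIT and OAS genes 6 were higher and 1 was lower by at least 25%, against 3.31% and 2.48% of all genes. Oas1a, which makes a nucleotide second messenger on binding double-stranded RNA, measured 29.2 CPM in Hk2 cKO and 7.51 CPM in Hk2 fl/fl cells (1.83). Of 15 measured genes in further induced families 12 were higher by at least 25%, against 3.31% of all genes. Among them were Ifi27l2a with 3242 CPM in Hk2 cKO and 1622 CPM in Hk2 fl/fl cells (1.00) and Ifitm3 with 839.5 CPM in Hk2 cKO and 282 CPM in Hk2 fl/fl cells (1.57). None of 4 measured genes of negative feedback passed 25%, where 3.31% of all genes were higher by that much, so the count says little. Socs3 measured 220.3 CPM in Hk2 cKO and 215 CPM in Hk2 fl/fl cells. Socs1, below the 10 CPM limit, measured 9.21 CPM in Hk2 cKO and 6.84 CPM in Hk2 fl/fl cells (0.38). Usp18, which also restrains the receptor, is counted among the members and was higher in Hk2 cKO (1.49). The members were thus higher in Hk2 cKO together with other induced genes and 4 interferon transcription factors. The measured receptors and kinases differed by less than 25%, as most genes did. Ifnb1, read in microglia-like cells only, was below the 10 CPM limit, and its counts are too few to settle a difference of that size.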

How the data were processed

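The deposited values are unnormalized UMI counts, 1 matrix per library, made with 10x 3′ v3 chemistry per the labels' protocols. Cell Ranger 3.1.0 and bcl2fastq with build GRCm38 are named in the submitters' processing notes. No source used here names the annotation. All 55450 identifiers occur in GENCODE M21, from which coordinates were taken. Groups came from the genotype labels.

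The filter kept barcodes having 500 genes or more and a mitochondrial share up to 10% (2301 Hk2 cKO, 2826 Hk2 fl/fl). Scrublet marked 1 and 2 of them, so the caller did not work and doublets largely remain. Cells were clustered with scanpy 1.11.5 (2000 variable genes, 30 components, 15 neighbours, Leiden 0.8). Clusters took class names from marker lists when at least 3 markers of 1 class were detected in 25% of cells and 4-fold above the rest. Microglia-like clusters had no such class, and their cells held 16 microglial markers at a mean detection of 80% or more. For values by cluster, the members and other interferon genes were left out of the clustering.

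UMIs were summed over 2012 Hk2 cKO (28448704 UMIs) and 2474 Hk2 fl/fl (32735497 UMIs) microglia-like cells and divided by the total to CPM. Ratios are log2 of Hk2 cKO over Hk2 fl/fl with 1 CPM added to both, so low genes show smaller ratios. Summed ratios add nothing. Intervals (95%) are exact Poisson for levels, exact binomial for shares and for count ratios, and cover counting error only. All members were named, and of each other list the 2 measured genes with the largest ratio and the 2 most abundant were eligible. The ratio and interval code was tested on simulated counts. TMM factors came from edgeR 4.0.16. The members and lists were chosen with earlier results of these data known. Some values of single genes in the other lists are not reported here.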

Additional observations from a re-analysis of the deposited data

How the results depend on the processing

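With 1 library per genotype the intervals say nothing of variation between animals, so no direction here can be assigned to the genotype rather than to the library. Within the genotype, loss of Hk2 cannot be told apart from the Cre driver. The count of measured members higher by at least 25% was 32, and 26 to 35 over 24 alternatives. The median log2 ratio was 0.83, and over 24 alternatives 0.66 to 0.90. The summed log2 ratio was 0.97 and 0.73 to 1.03 over 22 alternatives, with no alternative below 0. It left its narrow counting interval with TMM scaling (0.99), median-of-ratios size factors (1.00), cells thinned to 5000 UMIs (0.94), clusters weighted equally (1.02), cells with no UMI of S100a8 and S100a9 (0.99), cells with Gm28438 alone (1.03), without Isg15 (0.94), without the 5 members of largest CPM difference (0.73) and without the top 10% of cells by member UMIs (0.99). Without the microglia-like cluster led by interferon genes, an alternative chosen after seeing the data, the summed ratio was 0.85, the median 0.66 and the count 26 of 31. Cells with a Y-linked UMI and no Xist, also added later, gave 0.98, 0.84 and 32. The share of thinned cells with at least 3 member UMIs was 5.54 percentage points higher in Hk2 cKO. The difference was 0.369 points at 1 UMI, 17.5 points at 5 UMIs, 7.74 points for 3 different members, 25.2 points when thinned to 2500 UMIs, 2.49 points without thinning and 22.0 points without Bst2, Lgals3bp, Lgals9, Samhd1 and Rnf213. Its size is therefore set by the limit and the depth. Members under 10 CPM rest on as few as 21 UMIs in a library. No paired analysis was possible because each genotype has 1 library.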
